A study of Mus musculus with 6 samples.

Results

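The enzymes that build and remodel the phospholipids of liver membranes were followed in 6 liver RNA libraries of C57BL/6 mice. The group LKO (3 libraries, LKO 1 to LKO 3) came from mice with CD36, a fatty acid transporter and scavenger receptor of the cell surface, deleted in hepatocytes. The genotype label of these libraries reads CD36-/-, and the sources used here do not name the promoter that drives the deletion. The group CON (3 libraries, CON 1 to CON 3) came from wild-type mice of the same strain. All mice of both groups ate a diet with 60% of its energy as fat for 16 weeks. The labels do not state that each library is a separate animal, so every p-value measures the spread between libraries, which may be partly technical. The 10 genes were taken by name from the deposited matrix of 56534 genes and loci: Pemt, Chka, Chkb, Pcyt1a, Pcyt2, Cept1, Chpt1, Lpcat3, Ptdss1 and Ptdss2. All 10 were found, and all 10 were among the 11104 genes with a mean of at least 1 FPKM that were tested. FPKM are fragments scaled to the length of the gene and to the mapped fragments of the library. Levels of different genes can be compared only roughly, since a relation to gene length, which differed between libraries, remained.

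Phosphatidylcholine and phosphatidylethanolamine are the main lipids of cell membranes and of the surface of lipoproteins and lipid droplets. In the Kennedy pathway a kinase phosphorylates choline or ethanolamine, a cytidylyl transferase activates the product with CTP, and a phosphotransferase joins it to diacylglycerol. Liver also has a route of its own, in which PEMT methylates phosphatidylethanolamine to phosphatidylcholine. Phosphatidylserine is made by exchange of the head group of either lipid, and acyltransferases then swap fatty acid chains, which sets how fluid the membrane is.

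Cd36 was at 2.73 FPKM in LKO 1, 3.70 in LKO 2 and 10.22 in LKO 3, against 61.95 in CON 1, 26.49 in CON 2 and 19.66 in CON 3 (exact two-sided permutation test, p = 0.1, the smallest that 3 against 3 libraries allow). The LKO libraries all lay below the CON libraries, and LKO 3 was the nearest to them. The log2 fold change of Cd36 was -2.50 (SE 0.51, limma, adjusted p = 0.163 over all genes), and without LKO 3 it was -2.98 (limma, adjusted p = 0.0164). A larger change without LKO 3 follows from its Cd36, which was the highest of the LKO libraries. Leaving out any other single library gave an adjusted p of 0.133 to 0.486 for Cd36 (limma). LKO 3 also stood apart from the other LKO libraries in its relation to gene length. Its deviations correlated with gene length with a Spearman rho of 0.21, against -0.33 in LKO 1 and -0.30 in LKO 2, while the CON libraries were at 0.10 to 0.29. LKO 3 was thus within the CON range, and LKO 1 and LKO 2 were outside it. The results are therefore given with and without LKO 3. Without LKO 3, every LKO library had a negative rho and every CON library a positive one. In that fit, where no trend was removed, the group and the length trend cannot be told apart. LKO 2, on which the fits without LKO 3 rest together with LKO 1, had 10.15% of its FPKM in mitochondrial genes, against 3.88% to 6.18% in the other 5 libraries, and the lowest size factor (0.795, against 0.925 to 1.19). The depth in reads is unknown.

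Markers of hepatocytes were far above those of any other cell type listed. The 8 hepatocyte markers (among them Alb, Apoa1 and Hnf4a) summed to 44300 to 54200 FPKM in LKO and 49550 to 69500 FPKM in CON. The 8 markers of Kupffer cells and macrophages summed to 91.1 to 183.5 FPKM in LKO and 122.6 to 181.9 FPKM in CON, and the 8 of stellate cells and fibroblasts to 100.7 to 151.3 FPKM in LKO and 104.4 to 113.7 FPKM in CON. The sums of the sinusoidal endothelial, cholangiocyte, lymphocyte and adipocyte markers overlapped between the groups as well. The 5 neutrophil markers, of which 2 were tested, summed as deposited to 1.69 to 4.76 FPKM in LKO and 5.24 to 10.3 FPKM in CON, with no overlap. Among single genes, 24.3% lay wholly lower in LKO as deposited. With each sum divided by the size factor of its library the groups overlapped, since LKO 2 and LKO 3 then lay above CON 1. Of the defining markers, Ly6g of neutrophils and Lep of adipocytes were listed at 0 in every library. The part of other cell types in the results was not tested, and in bulk tissue fewer cells of a type and less RNA per cell cannot be told apart.

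Of the 10 phospholipid enzymes, 7 had a negative and 3 a positive log2 fold change, where 71.6% of all genes were negative. None passed an adjusted p of 0.05 (limma, Benjamini-Hochberg over all 11104 genes, of which 1, or 0.00901%, passed lower and 0 higher). At an unadjusted p under 0.05, 4 enzymes were lower (Pcyt1a, Chpt1, Ptdss1 and Lpcat3) and 1 was higher (Chka), where 18.9% of all genes were lower and 3.25% higher. In 6 enzymes all 3 LKO values lay under all 3 CON values, which held for 24.3% of all genes. In 0 enzymes they all lay above, which held for 3.92% of all genes. The median of the enzymes was -0.33 on the log2(FPKM + 1) scale and that of all genes -0.23. Median-ratio scaling, which sets each library to the level of its typical gene, moved the median of all genes to 0.01. A negative value as deposited is to be read against that shift. On the rescaled values 5 of the 10 enzymes were negative (48.9% of all genes), since Pemt and Ptdss2 changed sign. At an unadjusted p under 0.05, 1 was then lower (Pcyt1a, 7.96% of all genes) and 2 higher (Chka and Pcyt2, 10.2% of all genes). On that scale 3 lay below every CON library (Pcyt1a, Chpt1 and Lpcat3, which held for 11.1% of all genes) and 2 above every one (Chka and Pcyt2, 12.3% of all genes).

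**Figure D1:**
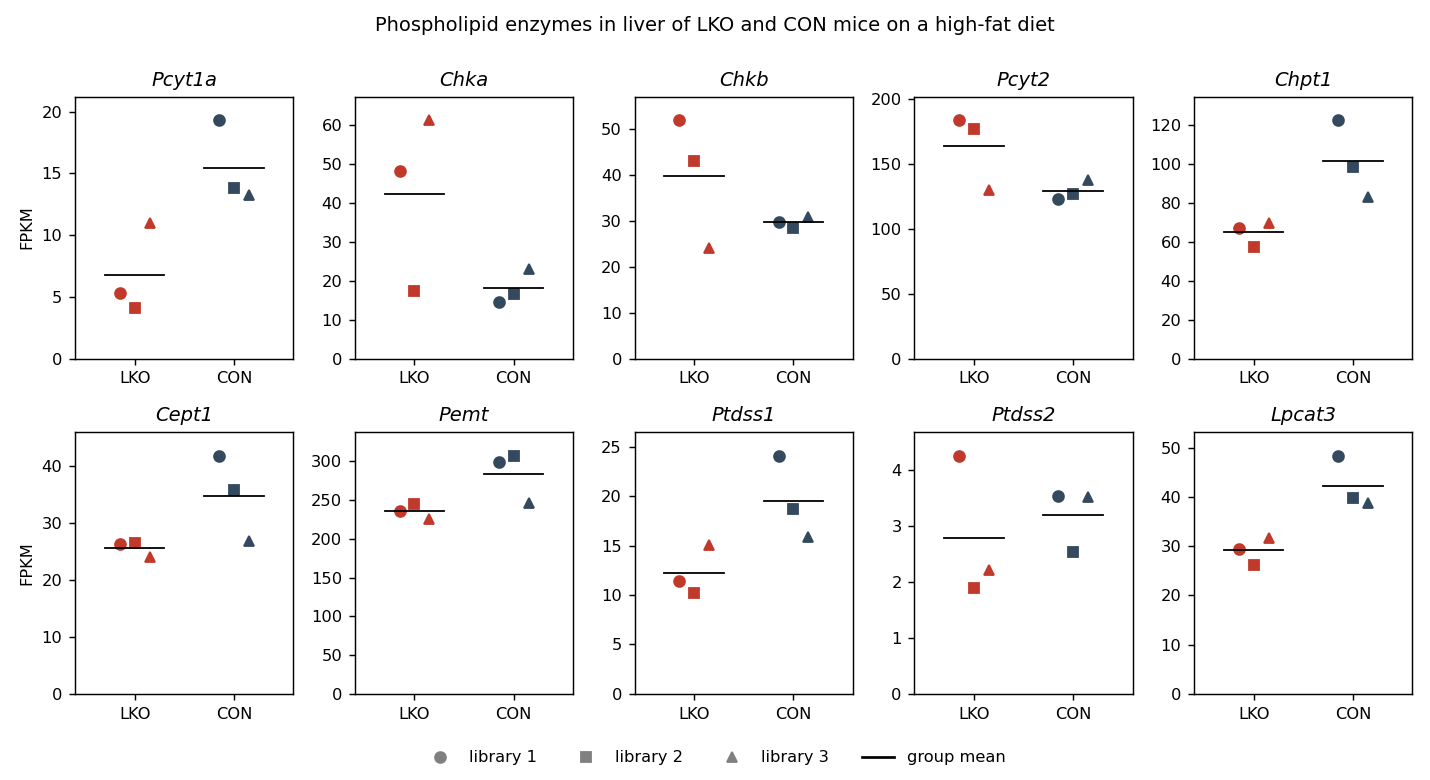
FPKM of the 10 phospholipid enzymes in each library, with LKO in red on the left, CON in blue on the right and a line at the group mean (n = 3 each); every axis starts at 0. Pcyt1a, Chpt1, Cept1, Pemt, Ptdss1 and Lpcat3 show no overlap between the groups, and in Chkb and Pcyt2 LKO 3 lies apart from LKO 1 and LKO 2.

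The enzymes spanned a wide range of levels. Pemt had the highest mean over the 6 libraries, 259.8 FPKM, followed by Pcyt2 at 146.5 FPKM and Chpt1 at 82.9 FPKM. The ranges of these 3 did not overlap with each other, and Chpt1 did not overlap with the next gene, Lpcat3. Lpcat3 (35.7 FPKM), Chkb (34.7 FPKM), Chka (30.2 FPKM) and Cept1 (30.1 FPKM) had overlapping ranges, and their order is not larger than their spread. Ptdss1 (15.9 FPKM) lay below Cept1 and above Pcyt1a (11.1 FPKM) in 6 of 6 libraries, and Ptdss2 was lowest at 2.99 FPKM. The cytidylyl transferase of the choline branch was thus present at a far lower transcript level than that of the ethanolamine branch.

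Pcyt1a encodes the choline-phosphate cytidylyl transferase, the rate-limiting enzyme of phosphatidylcholine synthesis from choline. It was at 5.30 FPKM in LKO 1, 4.11 in LKO 2 and 11.01 in LKO 3, against 19.29 in CON 1, 13.78 in CON 2 and 13.27 in CON 3. The LKO libraries all lay below the CON libraries, LKO 1 and LKO 2 by a wide margin and LKO 3 by a small one. The mean was 6.81 ± 3.69 FPKM in LKO and 15.5 ± 3.34 FPKM in CON (SD, n = 3 each). Its log2 fold change of -1.16 (SE 0.33) lay at percentile 1.9 of all genes, where low percentiles are the most negative, and did not pass over all genes (limma, adjusted p = 0.179). After median-ratio scaling it was -0.89 (SE 0.28, adjusted p = 0.258), and with the trend of each library with gene length removed -0.82 (SE 0.25, adjusted p = 0.266). Without LKO 3 it was -1.52 (SE 0.22) and passed (limma, adjusted p = 0.0141), in a fit where 18.9% of all genes passed lower. Pcyt1a also passed without LKO 3 with the length trend removed (-1.08, limma, adjusted p = 0.0259), where 5.62% of all genes passed lower. The value was negative in 18 of 18 settings. Pcyt1b, the other gene for this activity, averaged 0.0183 FPKM and was not tested.

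The promoter of Pcyt1a is shown with those of Chka, Chpt1 and Lpcat3, since these 4 genes had the smallest unadjusted p among the enzymes with a window in the RefSeq promoter table, which held 8 of the 10 (not Pcyt2 and Ptdss1). Each is given as the 250 bases before the most upstream start in the table, 5′ to 3′ on the strand of the gene, in build GRCm38.p6. The windows are chr16:32430671-32430920 (+) for Pcyt1a, chr19:3851523-3851772 (+) for Chka, chr10:88503971-88504220 (-) for Chpt1 and chr6:124662854-124663103 (+) for Lpcat3. Capitals mark every match to 5 motifs searched on both strands: the SREBP motif TCACNCCAC, the nuclear receptor motif AGGTCA, the E-box CACGTG, the CCAAT box and the GC box GGGCGG, which reads CCGCCC where it lies on the other strand.
Pcyt1a: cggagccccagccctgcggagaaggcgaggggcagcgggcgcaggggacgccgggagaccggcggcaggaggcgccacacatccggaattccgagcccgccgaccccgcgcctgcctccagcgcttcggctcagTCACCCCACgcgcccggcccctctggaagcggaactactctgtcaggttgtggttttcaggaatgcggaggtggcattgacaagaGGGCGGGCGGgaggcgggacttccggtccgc
Chka: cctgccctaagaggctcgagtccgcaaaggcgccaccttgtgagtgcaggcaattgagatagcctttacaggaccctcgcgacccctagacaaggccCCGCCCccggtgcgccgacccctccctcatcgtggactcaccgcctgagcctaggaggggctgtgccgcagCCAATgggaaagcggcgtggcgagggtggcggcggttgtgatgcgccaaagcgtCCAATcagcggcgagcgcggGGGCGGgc
Chpt1: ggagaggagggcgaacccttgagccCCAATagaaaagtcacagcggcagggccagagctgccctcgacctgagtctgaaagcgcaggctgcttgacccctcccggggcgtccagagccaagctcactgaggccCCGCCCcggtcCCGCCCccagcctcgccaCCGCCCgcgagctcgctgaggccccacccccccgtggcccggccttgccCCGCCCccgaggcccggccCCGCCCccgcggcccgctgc
Lpcat3: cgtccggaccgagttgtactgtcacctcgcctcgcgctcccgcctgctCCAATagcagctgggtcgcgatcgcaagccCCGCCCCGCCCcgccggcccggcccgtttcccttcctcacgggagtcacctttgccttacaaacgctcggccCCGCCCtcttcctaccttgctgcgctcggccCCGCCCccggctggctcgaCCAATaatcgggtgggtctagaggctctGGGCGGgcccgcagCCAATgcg
The Pcyt1a window holds the SREBP motif at -116 to -108 from the start, on the strand of the gene, and overlapping GC boxes near the start. The motif was in 1 of the 8 windows, and in 1.05% of 32817 mouse promoter windows of the same length. CCAAT boxes were in 5 of the 8 windows (33.8% of all) and GC boxes in 6 of the 8 (32.7% of all). The E-box (6.02% of all) and the nuclear receptor motif (14% of all) were in 0 of the 8. The GC content of the 4 windows shown was 68.0% to 75.6%, against a median of 52.4% over all windows. Of the windows not shown, that of Cept1 was at 66.8%, Ptdss2 at 59.6%, Chkb at 52.4% and Pemt at 44.8%. A match is a description of the letters and not of binding.

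Chka and Chkb encode the choline kinases, which trap choline in the cell and can also act on ethanolamine. Chka was at 48.10 FPKM in LKO 1, 17.40 in LKO 2 and 61.20 in LKO 3, against 14.61 in CON 1, 16.50 in CON 2 and 23.11 in CON 3. LKO 1 and LKO 3 were above every CON library, while LKO 2 lay within the CON range. The log2 fold change was 1.03 (SE 0.44), at percentile 98.2 of all genes, and did not pass (limma, adjusted p = 0.222). Median-ratio scaling gave 1.32 (SE 0.39, adjusted p = 0.258), and Chka without LKO 2 was at 1.56 and without LKO 3 at 0.68. The spread of Chka within LKO (42.2 ± 22.5 FPKM) was nearly as large as the gap of its mean to CON (18.1 ± 4.46 FPKM, SD, n = 3 each).

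Chkb was at 51.86 FPKM in LKO 1, 43.13 in LKO 2 and 24.07 in LKO 3, against 29.64 in CON 1, 28.42 in CON 2 and 30.93 in CON 3. LKO 1 and LKO 2 were above every CON library and LKO 3 was below every one. Over all libraries the log2 fold change was 0.34 (SE 0.28, limma, adjusted p = 0.449). Chkb without LKO 3 was at 0.66 (SE 0.16) and passed (limma, adjusted p = 0.0318), where 4.67% of all genes passed higher. With the length trend also removed it was 0.94 (SE 0.11, limma, adjusted p = 0.0215), where 6.39% of all genes passed higher. As deposited, both kinases were thus above CON in LKO 1, Chkb alone in LKO 2 and Chka alone in LKO 3, while after median-ratio scaling Chka in LKO 2 (21.88) was also above every CON library (12.31 to 20.64). Of the exonic bases of Chkb in GENCODE M21, 50.7% are shared with Gm44502, a protein-coding gene annotated on the same strand, which was at 0.32 to 0.82 FPKM in this table.

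Pcyt2 encodes the ethanolamine-phosphate cytidylyl transferase, the counterpart of Pcyt1a in phosphatidylethanolamine synthesis. It was at 183.74 FPKM in LKO 1, 177.11 in LKO 2 and 130.31 in LKO 3, against 122.73 in CON 1, 127.26 in CON 2 and 138.13 in CON 3. LKO 1 and LKO 2 were above the CON libraries and LKO 3 lay among them. The mean was 163.7 ± 29.1 FPKM in LKO and 129.4 ± 7.92 FPKM in CON (SD, n = 3 each). The log2 fold change of Pcyt2 was 0.32 (SE 0.19, limma, adjusted p = 0.322). Median-ratio scaling gave 0.62 (SE 0.23, adjusted p = 0.262), with the LKO libraries then above every CON library. Pcyt2 without LKO 3 was at 0.48 (limma, adjusted p = 0.0575), and at 0.68 with the length trend also removed (limma, adjusted p = 0.039). The value was positive in 18 of 18 settings, between 0.04 and 0.85.

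**Figure D2:**
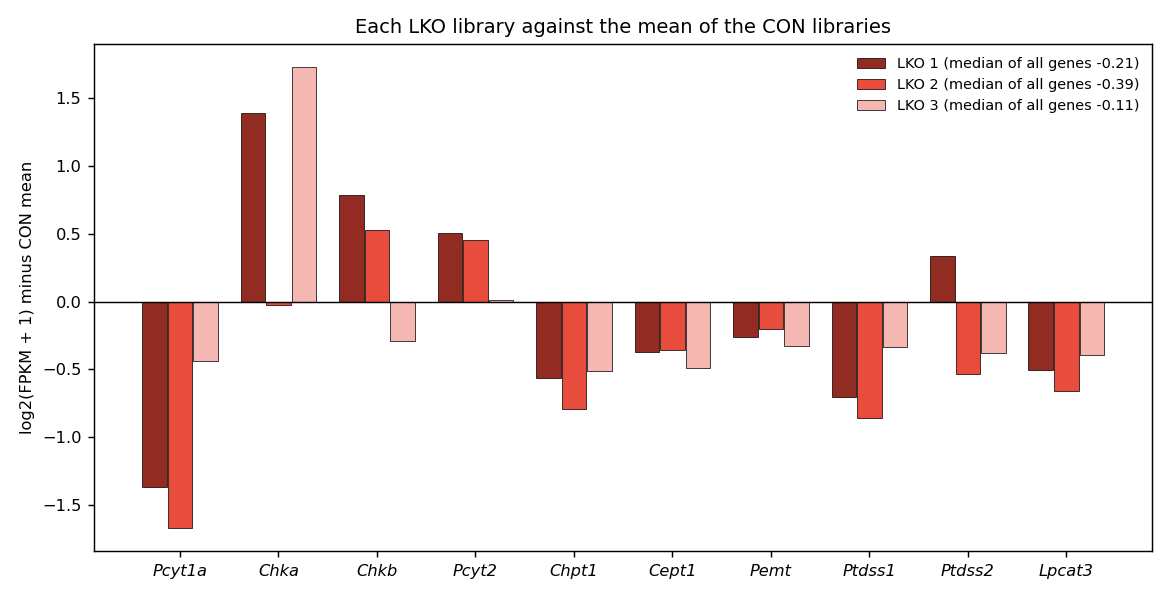
Bars give log2(FPKM + 1) of each LKO library minus the mean of the 3 CON libraries, for each enzyme; the legend gives the median of all tested genes in that library. Pcyt1a is at -1.37, -1.67 and -0.44 in LKO 1, LKO 2 and LKO 3, while Chkb and Pcyt2 are positive in LKO 1 and LKO 2 and Chkb is negative in LKO 3.

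Chpt1 and Cept1 encode the phosphotransferases of the last step. CHPT1 uses the choline intermediate, and CEPT1 can use the choline or the ethanolamine one. Chpt1 was at 67.13 FPKM in LKO 1, 57.39 in LKO 2 and 69.72 in LKO 3, against 122.14 in CON 1, 98.09 in CON 2 and 83.10 in CON 3. The groups did not overlap, and CON 1 was the highest library. Chpt1 had a log2 fold change of -0.62 (SE 0.20, limma, adjusted p = 0.185), and -0.33 (SE 0.17, adjusted p = 0.321) after median-ratio scaling. Cept1 was at 26.21 FPKM in LKO 1, 26.41 in LKO 2 and 24.00 in LKO 3, against 41.72 in CON 1, 35.70 in CON 2 and 26.73 in CON 3. The LKO libraries were close together and CON 3 lay just above them. Cept1 had a log2 fold change of -0.41 (SE 0.20, limma, adjusted p = 0.258), and -0.12 (SE 0.21) after median-ratio scaling, within its error. Neither gene passed without LKO 3 (limma, adjusted p = 0.0529 for Chpt1 and 0.227 for Cept1).

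Pemt, the liver enzyme that methylates phosphatidylethanolamine, was at 236.34 FPKM in LKO 1, 245.35 in LKO 2 and 225.51 in LKO 3, against 298.74 in CON 1, 307.00 in CON 2 and 246.15 in CON 3. LKO 2 and CON 3 were almost equal, and the groups did not overlap by a margin of under 1 FPKM. The log2 fold change was -0.26 (SE 0.17, limma, adjusted p = 0.365), close to the median of all genes. It turned to 0.04 (SE 0.20) after median-ratio scaling. Of the 10 enzymes, Pemt had the smallest spread over the 6 libraries, with a root mean square deviation of 0.17 from its own mean on the log2 scale.

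Ptdss1 encodes the synthase that exchanges the choline of phosphatidylcholine for serine, and Ptdss2 the one that acts on phosphatidylethanolamine. Ptdss1 was at 11.42 FPKM in LKO 1, 10.18 in LKO 2 and 15.07 in LKO 3, against 24.07 in CON 1, 18.67 in CON 2 and 15.82 in CON 3. The groups did not overlap, but LKO 3 and CON 3 were close. Ptdss1 had a log2 fold change of -0.63 (SE 0.22, limma, adjusted p = 0.193), -0.35 (SE 0.17) after median-ratio scaling, and -0.78 without LKO 3 (limma, adjusted p = 0.0394). With the length trend also removed, Ptdss1 without LKO 3 was at -0.42 and did not pass (limma, adjusted p = 0.149). Ptdss2 was at 4.26 FPKM in LKO 1, 1.89 in LKO 2 and 2.21 in LKO 3, against 3.54 in CON 1, 2.54 in CON 2 and 3.52 in CON 3. LKO 1 was the highest and LKO 2 the lowest of the 6 libraries. Its log2 fold change of -0.19 (SE 0.26, limma, adjusted p = 0.655) was within its error and was positive in 6 of 17 settings.

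Lpcat3 encodes the acyltransferase that places polyunsaturated fatty acids into lysophosphatidylcholine and is a target of the nuclear receptor LXR in mouse liver. It was at 29.41 FPKM in LKO 1, 26.24 in LKO 2 and 31.69 in LKO 3, against 48.32 in CON 1, 39.69 in CON 2 and 38.68 in CON 3. All LKO libraries lay below all CON libraries, also after median-ratio scaling. The mean was 29.1 ± 2.74 FPKM in LKO and 42.2 ± 5.30 FPKM in CON (SD, n = 3 each). Lpcat3 had a log2 fold change of -0.52 (SE 0.17, limma, adjusted p = 0.187). Median-ratio scaling gave -0.23 (SE 0.13, adjusted p = 0.365). Lpcat3 without LKO 3 was at -0.58 and passed (limma, adjusted p = 0.0489), but not with the length trend also removed (-0.31, limma, adjusted p = 0.136). Lpcat3 overlaps Emg1 on the other strand by 10.2% of its exonic bases. Emg1 was at 39.2 to 46.5 FPKM, and the sources used here do not say whether reads were counted by strand, so reads of the shared bases cannot be told apart. In all, 7 of the 10 enzymes share exonic bases with another gene, among them Cept1 with Dennd2d (24.7% of its bases, Dennd2d at 0.82 to 1.89 FPKM) and Ptdss1 with Mterf3 (5.3%, Mterf3 at 9.64 to 14.1 FPKM).

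**Figure D3:**
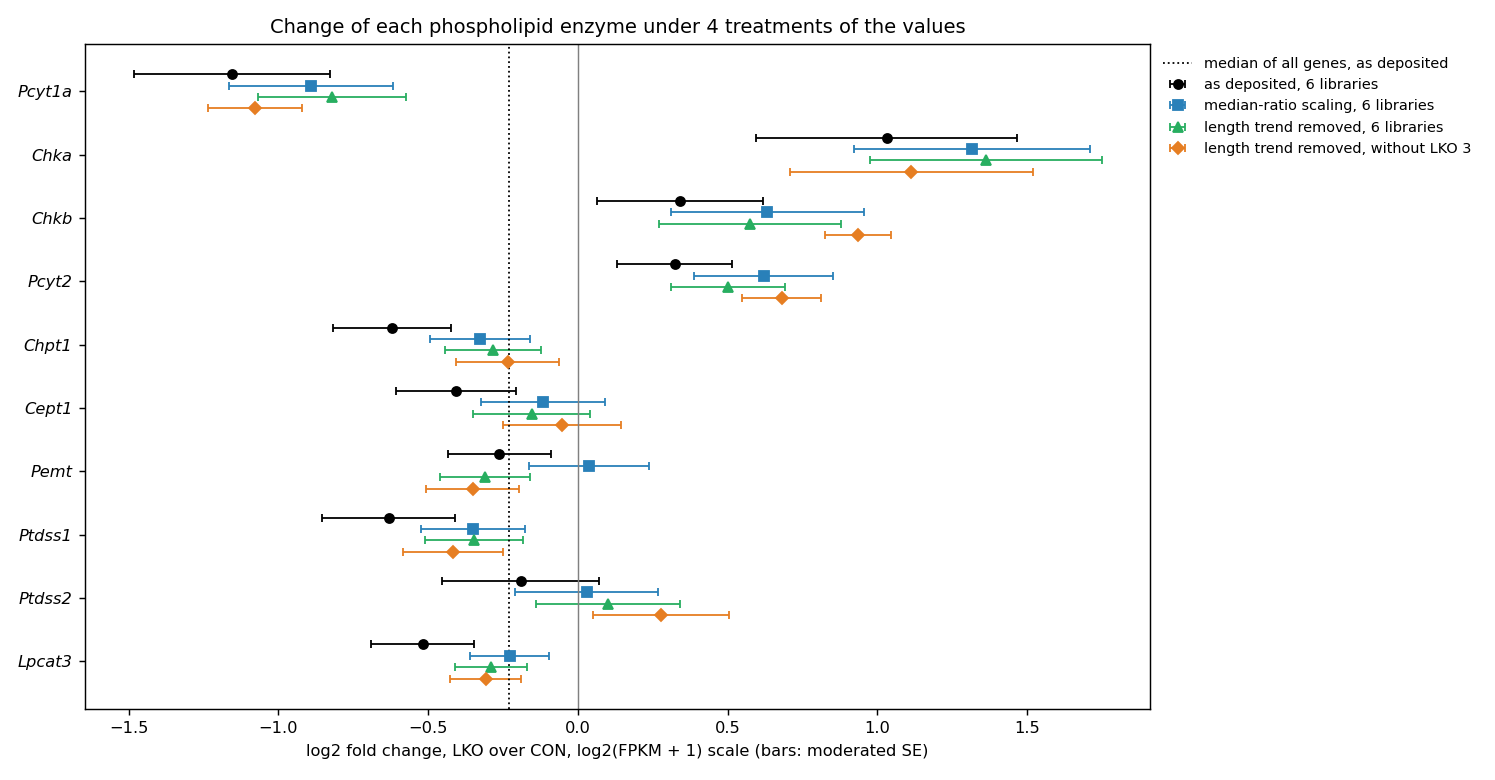
Points give the log2 fold change of LKO over CON for each enzyme on the log2(FPKM + 1) scale and bars its moderated standard error, in 4 treatments of the values (black, blue and green with 6 libraries, orange with 5). Pcyt1a stays at -0.82 or below, Chka, Chkb and Pcyt2 stay above 0, and Pemt and Ptdss2 cross 0; the dotted line is the median of all genes as deposited, -0.23.

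In all, 4 enzymes passed without LKO 3 (Pcyt1a, Ptdss1 and Lpcat3 lower, Chkb higher), in a fit where 2632 of 11150 genes (23.6%) passed. With the length trend also removed, 3 passed (Pcyt1a lower, Chkb and Pcyt2 higher), where 1340 genes (12.0%) did. The same 3 passed without LKO 3 after median-ratio scaling, where 2188 genes (19.6%) did, 8.21% lower and 11.4% higher. These fits compare 2 LKO libraries with 3 CON libraries, and the 2 that combine this with another treatment were chosen after the data were seen.

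A ratio of 2 genes of the same library does not depend on how the library was scaled. The ratio of Pcyt2 to Pcyt1a sets 1 gene of the ethanolamine branch against 1 gene of the choline branch, and does not stand for the whole branches. It was 34.7 in LKO 1, 43.1 in LKO 2 and 11.8 in LKO 3. In the other group it was 6.36 in CON 1, 9.24 in CON 2 and 10.4 in CON 3. All LKO libraries were above all CON libraries, LKO 3 only just. The mean log2 ratio was 4.70 ± 0.998 in LKO and 3.08 ± 0.37 in CON (SD, n = 3 each), a difference of 1.62 or 3.07-fold (exact two-sided permutation test, p = 0.1, the smallest possible; 0.4 after Benjamini-Hochberg adjustment over 6 ratios). The difference was 1.32 with the length trend removed, again with no overlap, and 2.19 without LKO 3. The ratio of Pemt to Pcyt1a was 44.6 in LKO 1, 59.7 in LKO 2 and 20.5 in LKO 3, against 15.5 in CON 1, 22.3 in CON 2 and 18.6 in CON 3. LKO 1 and LKO 2 were above the CON range and LKO 3 was within it (difference 1.03, exact permutation test, p = 0.2). With the length trend removed this difference was 0.51. Pemt is the shortest of the enzymes (1003 bases) and Pcyt1a among the longest (4789 bases).

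The ratio of Lpcat3 to Pcyt1a showed a like pattern, at 5.55 in LKO 1, 6.38 in LKO 2 and 2.88 in LKO 3. In the other group it was 2.51 in CON 1, 2.88 in CON 2 and 2.92 in CON 3 (difference 0.76, exact permutation test, p = 0.3). It has Pcyt1a as its denominator, as do the ratios of Pcyt2 and Pemt to Pcyt1a. These ratios are therefore not independent of each other. Within the pairs that share a step, no ratio separated the groups. The ratio of Chka to Chkb was 0.93 in LKO 1, 0.40 in LKO 2 and 2.54 in LKO 3, against 0.49 in CON 1, 0.58 in CON 2 and 0.75 in CON 3 (exact permutation test, p = 0.5). That of Cept1 to Chpt1 was 0.39 in LKO 1, 0.46 in LKO 2 and 0.34 in LKO 3, against 0.34 in CON 1, 0.36 in CON 2 and 0.32 in CON 3 (exact permutation test, p = 0.2). That of Ptdss1 to Ptdss2 was 2.68 in LKO 1, 5.39 in LKO 2 and 6.82 in LKO 3, against 6.80 in CON 1, 7.35 in CON 2 and 4.49 in CON 3 (exact permutation test, p = 0.6). The adjusted p of these 3 ratios was 0.4 to 0.6.

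**Figure D4:**
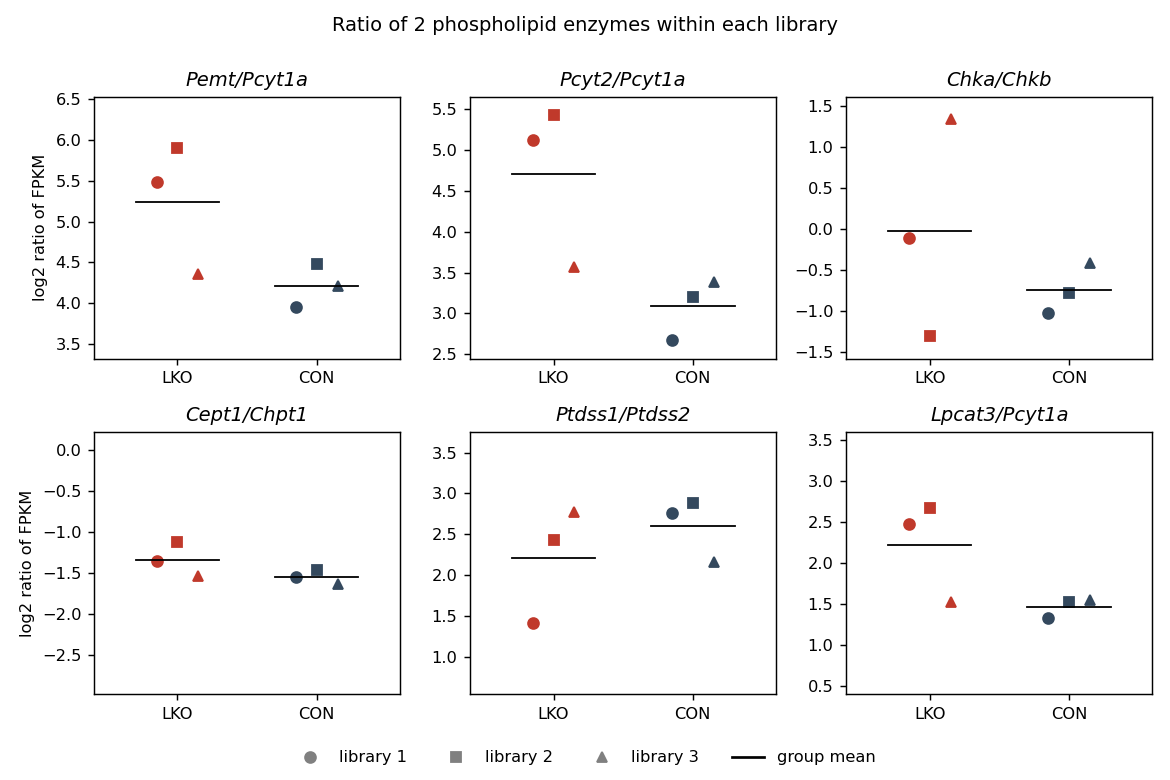
The log2 ratio of FPKM of 2 enzymes within each library, with LKO in red on the left, CON in blue on the right and a line at the group mean (n = 3 each); each panel spans the same range of log2 units. Only Pcyt2/Pcyt1a separates the groups, with LKO 3 next to CON 3, and the Chka/Chkb ratio spreads widest within LKO.

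Further genes of phospholipid metabolism were counted in 7 lists. Of 66 tested genes in all, 52 had a negative log2 fold change, where 71.6% of all genes were negative. The median was -0.39, against -0.23 for all genes. These values for all genes also apply to the counts and medians of each list below. At an unadjusted p under 0.05, 24 were lower (36.4%, against 18.9% of all genes) and 1 was higher (1.5%, against 3.25% of all genes), but 0 passed over all genes (limma). After median-ratio scaling 38 were negative, where 48.9% of all genes were, and the median was -0.14, against 0.01 for all genes. At that p, 10 were then lower (15.2%, against 7.96% of all genes) and 4 higher (6.1%, against 10.2% of all genes). Without LKO 3, 15 passed lower (22.7%, against 18.9% of all genes) and 0 higher (4.67%). With the length trend also removed, 6 passed lower (Etnk1, Gpam, Lcat, Lpgat1, Pparg and Rxra) and 4 higher (Gpat4, Gpcpd1, Mat2a and Ptpmt1), or 9.1% and 6.1%, against 5.62% and 6.39% of all genes.

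Of the other enzymes of head groups and the carriers of choline and ethanolamine, 10 of 13 were tested, 8 were negative (8 also after median-ratio scaling), the median was -0.63, and 2 were lower at an unadjusted p under 0.05 (limma, 18.9% of all genes). On the median-ratio scale 1 was lower at that p (7.96% of all genes). The choline carrier gene Slc44a1 was at 3.69 ± 0.17 FPKM in LKO and 7.17 ± 2.35 FPKM in CON (SD, n = 3 each). It was named for its small p, with no overlap as deposited (24.3% of all genes lower) and a log2 fold change of -0.77. Flvcr2, a choline carrier gene, was at -0.63, and Selenoi, which encodes the ethanolamine phosphotransferase, at -0.64, both with groups that overlapped. The ethanolamine kinase gene Etnk1 was at -0.75. Of these 4, Etnk1 passed without LKO 3 (limma, adjusted p = 0.0187), also with the length trend removed (adjusted p = 0.0392). It was at 4.63 and 3.03 FPKM in LKO 1 and LKO 2, but at 10.94 FPKM in LKO 3, above all CON libraries (8.94 to 10.51 FPKM).

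Of the other lysophospholipid acyltransferases, 3 of 8 were tested and all 3 were negative on both scales, with a median of -0.68. At an unadjusted p under 0.05, 2 were lower as deposited (limma, 18.9% of all genes) and 0 after median-ratio scaling (7.96% of all genes). Lpgat1, which acylates lysophospholipids, was at 17.4 ± 6.63 FPKM in LKO and 27.3 ± 2.40 FPKM in CON (log2 fold change -0.68), and Lclat1, an acyltransferase of lysocardiolipin, at 6.30 ± 2.89 FPKM in LKO and 11.6 ± 3.17 FPKM in CON (-0.83, SD, n = 3 each). Mboat7, which places arachidonic acid into lysophosphatidylinositol, was at -0.37. The groups of all 3 genes overlapped as deposited, with LKO 3 above CON 2 in each. The other 5, Lpcat1, Lpcat2, Lpcat4, Mboat1 and Mboat2, averaged under 1 FPKM, so Lpcat3 (35.7 FPKM) was above all 8 genes of this list.

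Of the genes that supply phosphatidic acid and diacylglycerol, 9 of 12 were tested, and 7 were negative (2 after median-ratio scaling, where the median was 0.18). At an unadjusted p under 0.05, 2 were lower on both scales (limma, 18.9% of all genes as deposited and 7.96% after median-ratio scaling), both acyltransferases of glycerol-3-phosphate. Gpam was at 15.2 ± 5.22 FPKM in LKO and 30.6 ± 3.07 FPKM in CON (log2 fold change -1.01, limma, adjusted p = 0.172), and Gpat3 at 2.83 ± 0.60 FPKM in LKO and 6.32 ± 0.88 FPKM in CON (-0.94, adjusted p = 0.163, SD, n = 3 each). The groups of both, which were named for their small p, did not overlap as deposited (24.3% of all genes lower). Agpat2, the next acyltransferase of the route, was at -0.29 (0.01 after median-ratio scaling), and Gpat4, a glycerol-3-phosphate acyltransferase of the endoplasmic reticulum, at 0.16. Gpam passed without LKO 3 (limma, adjusted p = 0.0141), also with the length trend removed (adjusted p = 0.0246).

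In the CDP-diacylglycerol branch, which leads to phosphatidylinositol and cardiolipin, 8 of 9 genes were tested, 7 were negative (6 after median-ratio scaling), the median was -0.38, and 4 were lower at an unadjusted p under 0.05 (limma, 18.9% of all genes). On the median-ratio scale 1 was lower and 1 higher at that p (7.96% and 10.2% of all genes). The 4 were Taz, the tafazzin gene of cardiolipin remodelling (10.9 ± 1.5 FPKM in LKO and 16.2 ± 1.45 FPKM in CON, SD, n = 3 each, -0.53), the CDP-diacylglycerol synthase gene Cds2 (-0.72), Lclat1 and the cardiolipin synthase gene Crls1 (-0.40). After median-ratio scaling Taz was at -0.25, Cds2 at -0.46 and Crls1 at -0.11.

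Genes that supply or use methyl groups, the substrate of PEMT, were tested in 14 of 15 cases, with 10 negative (8 after median-ratio scaling), a median of -0.48 and 5 lower at an unadjusted p under 0.05 (limma, 18.9% of all genes). On the median-ratio scale 3 were lower and 1 higher at that p (7.96% and 10.2% of all genes). The 4 with the smallest p were Chdh, Bhmt2, Aldh7a1 and Dmgdh. Chdh, the choline dehydrogenase that diverts choline from phosphatidylcholine to betaine, was at 18.9 ± 3.77 FPKM in LKO and 37.2 ± 8.74 FPKM in CON (log2 fold change -0.94, adjusted p = 0.175, limma). Aldh7a1, a dehydrogenase that acts on betaine aldehyde, was at 141.7 ± 48.9 FPKM in LKO and 253.6 ± 50.2 FPKM in CON (-0.87), and Dmgdh, the dimethylglycine dehydrogenase, at 85.2 ± 26.1 FPKM in LKO and 154.9 ± 41.2 FPKM in CON (-0.87, SD, n = 3 each). The methyltransferase gene Bhmt2 was at -0.67. All 4, which were named for their small p, showed no overlap between LKO and CON as deposited (24.3% of all genes lower). Median-ratio scaling gave -0.65 for Chdh, -0.38 for Bhmt2, -0.57 for Aldh7a1 and -0.57 for Dmgdh. On that scale the groups of Aldh7a1 overlapped, with LKO 3 above CON 3. Chdh, Aldh7a1 and Dmgdh passed without LKO 3 (limma, adjusted p = 0.0251, 0.022 and 0.0298, where 18.9% of all genes passed lower) but not with the length trend also removed (0.0665, 0.0572 and 0.0678).

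Of the genes of phospholipid breakdown, 15 of 16 were tested, 10 were negative (6 after median-ratio scaling, where the median was 0.06), and at an unadjusted p under 0.05 5 were lower and 1 higher (limma, 18.9% and 3.25% of all genes). On the median-ratio scale 0 were lower and 2 higher at that p (7.96% and 10.2% of all genes). The higher one as deposited was Gpcpd1, which splits glycerophosphocholine and so frees choline. It was at 34.26 FPKM in LKO 1, 36.61 in LKO 2 and 33.72 in LKO 3, against 27.64 in CON 1, 18.52 in CON 2 and 22.81 in CON 3. The LKO libraries were close together and all above CON, with LKO 3 no exception (log2 fold change 0.60, SE 0.19, limma, adjusted p = 0.184). Gpcpd1 was named for its small p, and 3.92% of all genes lay wholly higher in LKO as deposited. Median-ratio scaling gave 0.89 for Gpcpd1. Without LKO 3 Gpcpd1 did not pass (0.62, limma, adjusted p = 0.0613), and with the length trend also removed it did (1.04, limma, adjusted p = 0.026). Lipc, the hepatic lipase, was at 78.7 ± 9.66 FPKM in LKO and 126.0 ± 20.7 FPKM in CON (-0.67), and the lysophospholipase gene Lypla1 at 45.0 ± 4.39 FPKM in LKO and 67.7 ± 8.21 FPKM in CON (-0.57, SD, n = 3 each). The lysosomal phospholipase gene Pla2g15 was at -0.59.

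The 8 transcription factors tied to these enzymes were all negative, with a median of -0.76, and 5 were lower at an unadjusted p under 0.05 (limma, 18.9% of all genes). On the median-ratio scale 6 were negative, with a median of -0.50, and 3 were lower at that p (7.96% of all genes). Nr5a2, a nuclear receptor that binds phospholipids, was at 6.84 ± 1.86 FPKM in LKO and 12.4 ± 2.61 FPKM in CON (log2 fold change -0.78, SD, n = 3 each). The other 3 with the smallest p were Pparg (-1.42), Srebf1 (-1.18) and Ppara (-0.60). Pparg passed without LKO 3, also with the length trend removed (limma, adjusted p = 0.0165 and 0.0323), whereas Srebf1 passed in neither fit (0.0564 and 0.216).

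Patterns over the 6 libraries were compared as the root mean square difference of centred log2(FPKM + 1), among the 66 genes above, as a description with no test. The gene closest to Pcyt1a was Gpam (0.18, where the median gene was at 0.56), which also had LKO 3 nearest to CON. Chpt1 was closest to Bhmt2 (0.05), Lpcat3 to Lypla1 (0.06) and Ptdss1 to Cds2 (0.10). Pcyt2 was closest to Ptpmt1, a phosphatase of cardiolipin synthesis (0.12), and Chkb to Gpat4 (0.17). Cept1 was closest to the ethanolamine kinase gene Etnk2 (0.13), Pemt to Nr1h3, which encodes LXR alpha (0.14), and Ptdss2 to the acyltransferase gene Agpat5 (0.21). Chka was closest to the lysophospholipase gene Pnpla7 (0.53). These distances depend on how much an enzyme varies, and the root mean square deviation from its own mean was 0.77 for Chka, 0.71 for Pcyt1a and 0.17 for Pemt. The median gene was at 0.94 from Chka and at 0.30 from Pemt. Among the enzymes themselves, Chpt1 and Lpcat3 were the closest pair (0.09), Chkb and Pcyt2 differed by 0.17, and Pcyt1a was 0.34 from its nearest, Ptdss1.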

How the data were processed

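Liver RNA was isolated with TRIzol, treated with DNase I and made into standard Illumina libraries, per the labels' protocols. The deposited values are FPKM per gene, made by the authors with HISAT2, StringTie and build mm9 per the submitters' processing notes; in the sources used here, neither versions nor the strand setting are given. The deposited gene length equals the longest GENCODE M21 transcript for 10 of the 10 enzymes. That annotation is later than mm9, so the lengths and the processing notes differ in age, and the build behind the values is not certain. No reads were recovered, so depth is unknown and no count model was used.

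Of 56536 lines, 2 held no values. Genes averaging 1 FPKM or more were taken to log2(FPKM + 1) and tested in R 4.3.3 with limma 3.58.1 (trend, two-sided, group only, Benjamini-Hochberg, threshold 0.05). Fold changes understate low genes. Ratios were tested by exact permutation (scipy 1.17.1). Length trends were removed by lowess (span 0.3), which also centres each library. The limma step, as run on all 6 libraries, was tested on simulated data that held no library shift and no length trend. Promoters are RefSeq's, in GRCm38.p6, a later build than the mm9 of the processing notes. The enzymes and lists were chosen with earlier results of these data known. Named genes are the 10 enzymes, Cd36, up to 4 genes per list with the smallest unadjusted p, and the closest pattern per enzyme; others were named after their values were seen.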

Additional observations from a re-analysis of the deposited data

How the results depend on the processing

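Of 169 values of single enzymes over 17 other settings, 144 kept their direction and their side of the threshold, 17 came to pass it and 8 changed sign. The changes of sign were Pemt at 0.037 after median-ratio scaling (0.14 without LKO 3), and Ptdss2 at 0.030 after median-ratio scaling and 0.033 after quantile normalization, 0.10 with the length trend removed, 0.32 with array weights, and 0.28 and 0.18 without LKO 3 with the length trend removed or median-ratio scaling. The median of the enzymes was -0.043 after median-ratio scaling, -0.61 without mitochondrial genes, and -0.14 and 0.069 without LKO 3 with the length trend removed or median-ratio scaling. The count of genes that passed was 0 with a pseudocount of 0.1, with no filter, with a filter at 5 FPKM (which dropped Ptdss2) and with the length trend removed, and 2 without mitochondrial genes. With array weights it was 5864, and 7 enzymes passed (Pcyt1a -1.28, Chka 1.27, Chkb 0.76, Pcyt2 0.47, Chpt1 -0.49, Ptdss1 -0.61, Lpcat3 -0.45, beside Cd36 at -2.86). These 7 are among the 17 values that came to pass. That fit gave LKO 1 a weight of 13.8 and the others 0.196 to 1.53. The estimate of the weights stopped before it converged, so the calls of that fit cannot be relied on. In the 2 fits chosen after seeing the data, without LKO 3 and with the length trend removed or median-ratio scaling, 1340 and 2188 genes and 3 and 3 enzymes passed, with Pcyt1a at -1.08 and -1.19, Chkb at 0.94 and 1.02, Pcyt2 at 0.68 and 0.85, and Cd36 at -2.61 and -2.65. Leaving out each library in turn gave 0 to 2632 genes and 0 to 4 enzymes, all calls of enzymes without LKO 3, with Pcyt1a at -1.52 to -0.90, Chka at 0.68 to 1.56, Chkb at 0.12 to 0.66, Pcyt2 at 0.23 to 0.48, Chpt1 at -0.75 to -0.48, Cept1 at -0.58 to -0.27, Pemt at -0.36 to -0.20, Ptdss1 at -0.78 to -0.48, Ptdss2 at -0.45 to -0.02, Lpcat3 at -0.58 to -0.42, Cd36 at -2.98 to -2.03 and the median at -0.47 to -0.24. Over the same libraries left out the log2 ratio of Pemt to Pcyt1a differed by 0.70 to 1.47, Pcyt2 to Pcyt1a by 1.26 to 2.19, Chka to Chkb by 0.03 to 1.36, Cept1 to Chpt1 by 0.10 to 0.31, Ptdss1 to Ptdss2 by -0.68 to -0.004 and Lpcat3 to Pcyt1a by 0.53 to 1.11. Library numbers did not pair the samples (same-number correlations of -0.05, 0.17 and 0.07), and with the number as a replicate block 0 genes and 0 enzymes passed (limma). The cause of these differences was not tested. With 3 libraries a group and no read depth, small changes of low genes such as Ptdss2 could not be resolved.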
